A study of Capra hircus with 6 samples.

Results

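The genes described here encode the nuclear subunits of the oxidative phosphorylation machinery, measured in whole-ovary RNA of 6 goats (Capra hircus). They were matched by symbol, as every gene whose NCBI goat symbol carries the stem of a complex I to V subunit. The stems were NDUFA, NDUFB, NDUFC, NDUFS or NDUFV with a number, SDHA to SDHD, UQCR, CYC1, COX4 to COX8, and ATP5. This set was chosen with earlier results of these data known. Of the 17504 genes in the data, 59 matched, with 38 for complex I, 4 for complex II and 17 for complex V. The subunits of complexes III and IV and the 13 subunits made from mitochondrial DNA matched 0 genes by these symbols and are not analysed here. The samples were ovaries of 3 Tibetan goats, a breed given as non-prolific, and 3 Jintang black goats, given as prolific. The phase is given as follicular for all, the time when follicles grow towards ovulation. No treatment, genotype or age is given, and each library is 1 goat.

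Oxidative phosphorylation passes electrons from NADH through complex I, and from succinate through complex II, along the inner mitochondrial membrane to oxygen, and the proton gradient built on the way drives ATP synthase, complex V. Complex I and complex V combine nuclear-encoded and mitochondrially encoded subunits, whereas complex II is nuclear-encoded throughout and is also an enzyme of the citric acid cycle. In the ovary, mitochondria carry out the first step of steroid synthesis as well, in which cholesterol brought in by STAR is cleaved to pregnenolone by CYP11A1.

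Values are FPKM, a fragment count corrected for transcript length and library total, so that levels of different genes can be set side by side. Absolute depth is unknown. The most frequent ratio of low values to those in Tibetan 1 put library depths within a factor of 1.11 of each other. This ratio was searched for within a bounded range only, so a difference beyond that range could not have been returned. Of the ovarian markers, STAR, FOXL2 and FSHR were detected in both breeds, with FSHR listed at 0 in Tibetan 1, while the oocyte genes (7 of 8 matched) summed to 0.960 to 20.2 FPKM in the Tibetan goats and 4.33 to 23.7 FPKM in the Jintang goats, with BMP15 or ZP4 at 0 in Tibetan 1 and Tibetan 3. Values are always given for goats 1, 2 and 3 of each breed in turn. Whole ovaries mix many cell types, and fewer cells of a type cannot be told apart from less RNA per cell.

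No subunit gene passed the threshold for a difference between the breeds, with 3 goats in each. These transcripts were abundant in every ovary, with a median level of 79.5 FPKM over the tested subunit genes beside 12.8 FPKM over all tested genes. The 57 members that reached 1 FPKM in at least 3 libraries were tested within a limma fit over 13067 genes, in which 0 members and 0 genes in all passed at an adjusted p under 0.05 (0% higher and 0% lower in Jintang). An unadjusted p under 0.05 was reached by 0 members and by 806 of all tested genes (6.17%). The breeds overlapped in all 57 tested members as deposited, whereas they did not overlap in 9.9% of all tested genes, 3.2% higher and 6.7% lower in Jintang. The median log2 fold change of the members was 0.15, with 44 positive and 13 negative, beside -0.10 over all tested genes. Fold changes here are Jintang over Tibetan, computed on log2(FPKM + 1), which understates the change of low genes. With median-ratio scaling the median of all tested genes moved to 0.02 and that of the members to 0.28, with 51 members positive. The smallest adjusted p among members was 0.743, and the member fold changes ran from -0.34 (NDUFC2) to 0.75 (SDHA). Without Jintang 2 the members' median was -0.07, with 21 positive and 36 negative, and without Tibetan 1 it was 0.01. The members share their libraries, so these counts describe 6 goats.

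**Figure D1:**
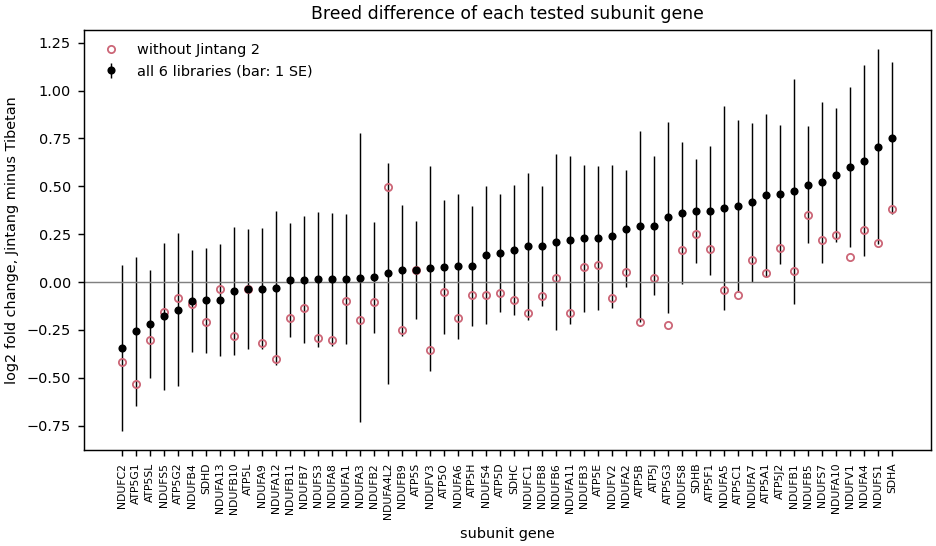
Log2 fold change on log2(FPKM + 1), positive where Jintang is higher, of the tested subunit genes reported here, ordered by value. Filled points are the fit with all 6 libraries with a bar of 1 SE, and open points are the same fit without Jintang 2, which lie below the filled points for most genes.

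What did vary was the level between single goats. Jintang 2 held the highest value of 36 of the 57 tested members, beside 20.5% of all tested genes, and Tibetan 1 the lowest of 28, beside 21%. Tibetan 2 was highest in 11 members (18.4% of all tested genes) and Tibetan 3 in 5 (18%). Tibetan 1 was highest in 1 (21.9%), Jintang 1 in 2 (12.6%) and Jintang 3 in 2 (8.53%). Jintang 2 was highest in 46 members with median-ratio scaling (25.5% of all tested genes) and in 42 with scaling to a common sum (20.6%). Among lowest values, Jintang 1 held 14 members (25.2%), Tibetan 2 held 8 (13%), Tibetan 3 held 5 (9.93%), and Jintang 2 (25.7%) and Jintang 3 (5.18%) held 1 each. Summed over all 59 members the subunit transcripts reached 5695, 7913 and 7334 FPKM in the Tibetan ovaries and 6192, 10683 and 6959 FPKM in the Jintang ovaries. This was 0.946%, 1.16% and 1.201% of the FPKM of the Tibetan libraries and 1.03%, 1.71% and 1.04% of that of the Jintang libraries. Jintang 1 and Jintang 3 thus lay inside the Tibetan range, and Jintang 2 lay above all other ovaries. On the log2 scale, a member in Jintang 2 stood a median of 0.68 above its mean in the other 5 ovaries, where the median of all tested genes was -0.11.

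**Figure D2:**
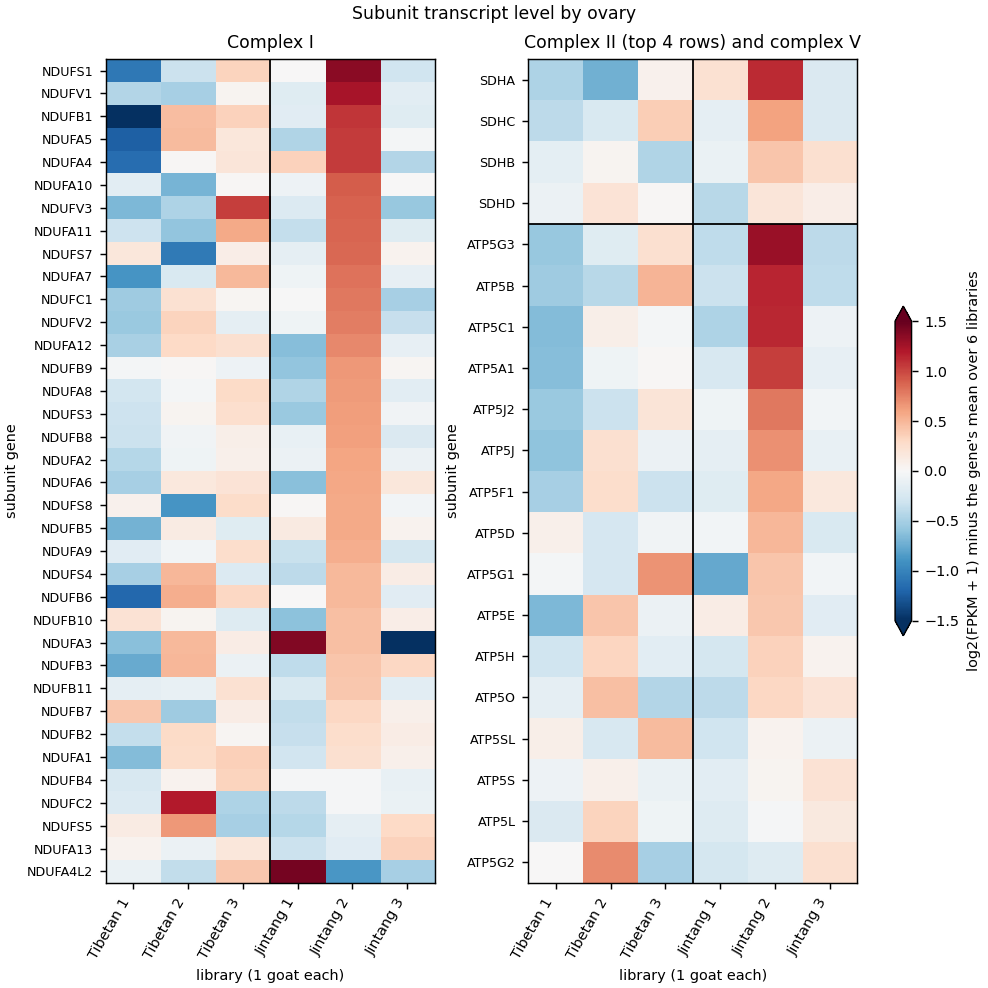
Level of the tested subunit genes reported here in each ovary, as log2(FPKM + 1) minus the mean of the gene over the 6 libraries (red above, blue below, colours saturate at 1.5 in either direction). The column of Jintang 2 is red for most rows, and the lowest rows of each panel, among them NDUFA4L2, NDUFA13, NDUFS5, ATP5G2 and ATP5L, do not share this.

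Complex I has 7 nuclear-encoded core subunits, which form the arm that carries electrons from NADH to quinone. The 6 core subunits described here all had their highest value in Jintang 2. NDUFV1, which binds NADH and the flavin, stood at 36.9, 35.3 and 51.8 FPKM in the Tibetan ovaries and at 44.2, 120.1 and 45.1 FPKM in the Jintang ovaries (log2 change 0.60 with an SE of 0.42 and an adjusted p of 0.759). Its level in Jintang 2 was 2.32 times the next highest, while Jintang 1 and Jintang 3 lay between Tibetan 1 and Tibetan 3. NDUFS1, the largest iron-sulphur subunit, stood at 12.4, 21.4 and 34.4 FPKM in the Tibetan ovaries and at 27.2, 70.7 and 21.8 FPKM in the Jintang ovaries (log2 change 0.71 with an SE of 0.51 and an adjusted p of 0.760). It was the lowest of these 6 on average and varied the most, 5.71 times between Tibetan 1 and Jintang 2. Without Jintang 2 the log2 changes were 0.13 for NDUFV1 and 0.21 for NDUFS1.

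In NDUFS7, NDUFS8, NDUFV2 and NDUFS3 Jintang 2 lay 1.23 to 1.62 times above the next ovary. NDUFS7 read 62.4, 26.1 and 59.4 against 50.4, 101 and 57.5 FPKM in Tibetan and Jintang 1, 2 and 3, with its lowest value in Tibetan 2. NDUFS8, a ferredoxin-like iron-sulphur subunit, read 98.7, 50.7 and 114 against 95.2, 141 and 91.7 FPKM, again lowest in Tibetan 2. NDUFV2 read 46.5, 86.7 and 62.5 against 65.8, 117 and 54.0 FPKM and NDUFS3 46.4, 59.9 and 69.2 against 39.2, 89.8 and 56.1 FPKM. Their log2 fold changes were 0.52 for NDUFS7, 0.36 for NDUFS8, 0.24 for NDUFV2 and 0.01 for NDUFS3, each with the breeds overlapping and an adjusted p (limma) of at least 0.784. Without Tibetan 2 the log2 changes were 0.12 for NDUFS7 and 0.012 for NDUFS8.

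The accessory subunits of complex I surround this core and serve its assembly and stability. Of 29 such genes, leaving out NDUFA4 and NDUFA4L2, 28 were tested, 21 with a positive and 7 with a negative fold change. Their median was 0.07 (core 0.36), and Jintang 2 was highest in 16 of the 28. Without Jintang 2 the accessory median was -0.13, with 7 positive and 21 negative, and the core median was 0.13. The accessory genes with the smallest p were NDUFB5 and NDUFA10. NDUFB5, a subunit of the membrane arm, stood at 19.3, 35.2 and 28.4 FPKM in the Tibetan ovaries and at 35.6, 48.2 and 33.5 FPKM in the Jintang ovaries (log2 change 0.51 with an SE of 0.30 and an adjusted p of 0.743). All 3 Jintang values lay above Tibetan 1 and Tibetan 3, and Tibetan 2 lay between Jintang 3 and Jintang 1. NDUFA10 stood at 27.3, 18.5 and 31.1 FPKM in the Tibetan ovaries and at 28.9, 58.3 and 30.8 FPKM in the Jintang ovaries (log2 change 0.56 with an SE of 0.35 and an adjusted p of 0.753), with the 4 values from Tibetan 1, Tibetan 3, Jintang 1 and Jintang 3 within 4 FPKM of each other. Without Jintang 2 the log2 change of NDUFA10 was 0.24, and without Tibetan 1 that of NDUFB5 was 0.28. NDUFB1 and NDUFA5 had the widest ranges of the accessory genes that were above 0 in every ovary, at 7.46 and 5.27 times between the lowest and the highest. NDUFA5 read 9.52, 33.3 and 26.7 against 17.1, 50.1 and 23.1 FPKM and NDUFB1 3.56, 17.1 and 15.7 against 10.6, 26.6 and 10.5 FPKM, both lowest in Tibetan 1 and highest in Jintang 2.

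A smaller set of complex I genes had another order. NDUFS5, an accessory subunit, was among the most abundant, at 305, 439.6 and 198 FPKM in the Tibetan ovaries and at 208, 256 and 345 FPKM in the Jintang ovaries, and was highest in Tibetan 2. NDUFC2 read 50.3, 133 and 41.8 against 43.9, 57.1 and 54.1 FPKM, so that Tibetan 2 stood apart and the other 5 ovaries lay between 41.8 and 57.1 FPKM. NDUFA13, also known as GRIM-19, read 175, 158 and 189 against 134, 149 and 214 FPKM, with Jintang 3 highest and Jintang 1 lowest. NDUFB4 read 80.5, 99.5 and 121 against 94.3, 94.5 and 88.5 FPKM, with its 3 Jintang values inside the Tibetan range. These genes, with NDUFA4L2, ATP5G2 and ATP5L, were the 7 of 57 tested members whose level in Jintang 2 lay below the mean of the other 5 ovaries. Of the 7, NDUFA4L2 and ATP5G2 were named by rule and the others after their values were seen.

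NDUFA4 carries a complex I symbol but is now counted as a subunit of complex IV, and NDUFA4L2 is its hypoxia-inducible paralog. NDUFA4 was the most abundant gene among the complex I symbols, at 119, 268 and 299 FPKM in the Tibetan ovaries and at 336, 549 and 195 FPKM in the Jintang ovaries (log2 change 0.63 with an SE of 0.50 and an adjusted p of 0.778). NDUFA4L2 was far lower, at 10.4, 8.47 and 15.2 FPKM in the Tibetan ovaries and at 32.2, 5.68 and 7.71 FPKM in the Jintang ovaries (log2 change 0.05 with an SE of 0.58). It was highest in Jintang 1 and lowest in Jintang 2, where NDUFA4 was highest. The log2 ratio of NDUFA4L2 to NDUFA4 was -3.39, -4.83 and -4.21 in Tibetan 1, 2 and 3 and -3.34, -6.36 and -4.49 in Jintang 1, 2 and 3, with overlapping breeds. The difference of the breed means, Jintang minus Tibetan, was -0.59, and 0.23 without Jintang 2.

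Complex II, succinate dehydrogenase, consists of 4 subunits, of which SDHA binds the flavin and oxidises succinate, SDHB carries the iron-sulphur clusters, and SDHC and SDHD anchor the enzyme in the membrane. SDHA stood at 72.1, 60.1 and 104 FPKM in the Tibetan ovaries and at 117, 217 and 86.1 FPKM in the Jintang ovaries (log2 change 0.75 with an SE of 0.40 and an adjusted p of 0.743), the largest fold change of any tested member. Jintang 1 and Jintang 2 lay above all Tibetan ovaries, and Jintang 3 lay between Tibetan 1 and Tibetan 3. The means were 78.8 ± 22.8 FPKM in the Tibetan and 140.0 ± 68.6 FPKM in the Jintang goats (SD, n = 3 goats each). Without Jintang 2 the log2 fold change was 0.38, and without Jintang 3 it was 1.04 with an adjusted p of 0.324 in limma. That was the only case in which a member had an unadjusted p under 0.05, over all the alternatives run, and without Jintang 3 the same held for 14.3% of all tested genes. SDHB stood at 53.5, 61.5 and 43.2 FPKM in the Tibetan ovaries and at 55.3, 80.0 and 70.5 FPKM in the Jintang ovaries (log2 change 0.37 with an SE of 0.27 and an adjusted p of 0.765). Here Jintang 1 lay below Tibetan 2 as deposited. After median-ratio scaling or scaling to a common sum the 3 Jintang values of SDHB lay above the 3 Tibetan values.

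The anchor subunits differed from SDHA in their order. SDHC read 62.6, 70.3 and 107 against 74.9, 126 and 71.0 FPKM, with Tibetan 3 close behind Jintang 2. SDHD read 66.7, 81.8 and 72.0 against 52.8, 80.3 and 75.7 FPKM, the narrowest range of the 4 genes, with Tibetan 2 highest and Jintang 1 lowest. Its log2 fold change was -0.09 (SE 0.27), which turned to 0.03 with median-ratio scaling. In Jintang 2 the 4 transcripts therefore stood at unequal levels, from 80.0 FPKM for SDHB to 217 FPKM for SDHA. This was not particular to Jintang 2. The levels ran from 43.2 (SDHB) to 107 FPKM (SDHC) in Tibetan 3 and from 52.8 (SDHD) to 117 FPKM (SDHA) in Jintang 1. In Tibetan 2 they lay between 60.1 and 81.8 FPKM, and SDHA was the lowest there.

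Complex V makes ATP in its F1 head, which is joined to the membrane part by a peripheral stalk. The complex V genes were the most abundant of the 3 complexes, with a median level of 234 FPKM beside 78.4 for complex II and 63.4 for complex I. ATP5A1 and ATP5B encode the alpha and beta subunits, which form the catalytic ring. ATP5A1 stood at 255, 379 and 399.8 FPKM in the Tibetan ovaries and at 335, 816 and 363 FPKM in the Jintang ovaries (log2 change 0.45 with an SE of 0.43 and an adjusted p of 0.803). ATP5B stood at 215, 234 and 445 FPKM in the Tibetan ovaries and at 249, 689 and 239 FPKM in the Jintang ovaries (log2 change 0.29 with an SE of 0.50 and an adjusted p of 0.898). In both genes Jintang 2 lay above the other 5 ovaries, 2.04 and 1.55 times over the next, and Tibetan 3 came second. Without Jintang 2 their log2 fold changes were 0.05 and -0.21.

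The rest of the head varied less evenly. ATP5C1, the gamma shaft, read 123, 204 and 188 against 139.8, 421 and 183 FPKM, again highest in Jintang 2. ATP5D, the delta subunit, read 249, 198 and 229 against 229.9, 334 and 203 FPKM, with 5 ovaries between 198 and 249 FPKM. ATP5E, the epsilon subunit, read 253, 539 and 381 against 438, 535 and 360.4 FPKM, with Tibetan 2 and Jintang 2 nearly level at the top. In the peripheral stalk, ATP5F1 (subunit b) read 126, 214 and 142 against 157, 268 and 199 FPKM (log2 change 0.37 with an SE of 0.34) and ATP5J 135, 244 and 194 against 188, 333 and 189.7 FPKM. ATP5H (subunit d) read 182, 279.9 and 199.7 against 185, 283 and 231 FPKM and ATP5O, the oligomycin sensitivity protein, 186, 281 and 151 against 156, 253 and 237 FPKM. All 4 stalk genes had Tibetan 2 and Jintang 2 as their 2 highest ovaries. Among the small subunits of the membrane part, ATP5J2 (subunit f) stood at 157, 186 and 266 FPKM in the Tibetan ovaries and at 223, 405 and 226 FPKM in the Jintang ovaries (log2 change 0.46 with an SE of 0.36 and an adjusted p of 0.781). ATP5L (subunit g) read 391, 569.7 and 433 against 397, 448 and 503 FPKM, with its highest value in Tibetan 2.

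The rotor ring of complex V is built from subunit c, and 3 genes, ATP5G1, ATP5G2 and ATP5G3, encode the same mature subunit behind different import sequences. ATP5G2 was the most abundant of all members, at 558, 909 and 394 FPKM in the Tibetan ovaries and at 464, 487 and 657 FPKM in the Jintang ovaries (log2 change -0.14 with an SE of 0.40). ATP5G3 stood at 154, 199.96 and 270.2 FPKM in the Tibetan ovaries and at 174, 558 and 173 FPKM in the Jintang ovaries (log2 change 0.34 with an SE of 0.50), and ATP5G1 was the lowest, at 74.2, 63.1 and 121 FPKM in the Tibetan ovaries and at 44.1, 101 and 73.7 FPKM in the Jintang ovaries (log2 change -0.26 with an SE of 0.39). Only ATP5G3 had its highest value in Jintang 2, at 2.07 times the next ovary. ATP5G2 made up 71.0%, 77.6% and 50.2% of the summed FPKM of the 3 genes in Tibetan 1, 2 and 3, and 68.0%, 42.5% and 72.7% in Jintang 1, 2 and 3. ATP5G3 made up between 17.1% (Tibetan 2) and 48.7% (Jintang 2), and only in Jintang 2 did it exceed ATP5G2. The summed level was nearly equal in Tibetan 2 (1172 FPKM) and Jintang 2 (1146 FPKM), made up in the first case mostly of ATP5G2. The log2 ratio of ATP5G2 to ATP5G3 averaged 1.53 ± 0.865 in Tibetan and 1.04 ± 1.10 in Jintang ovaries (SD, n = 3 each), and that of ATP5G1 to ATP5G3 averaged -1.28 ± 0.323 and -1.88 ± 0.619, with the breeds overlapping in both. The difference for ATP5G2 to ATP5G3 was -0.48, and 0.14 without Jintang 2, and that for ATP5G1 to ATP5G3 was -0.60, and -0.31 without Jintang 2.

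**Figure D3:**
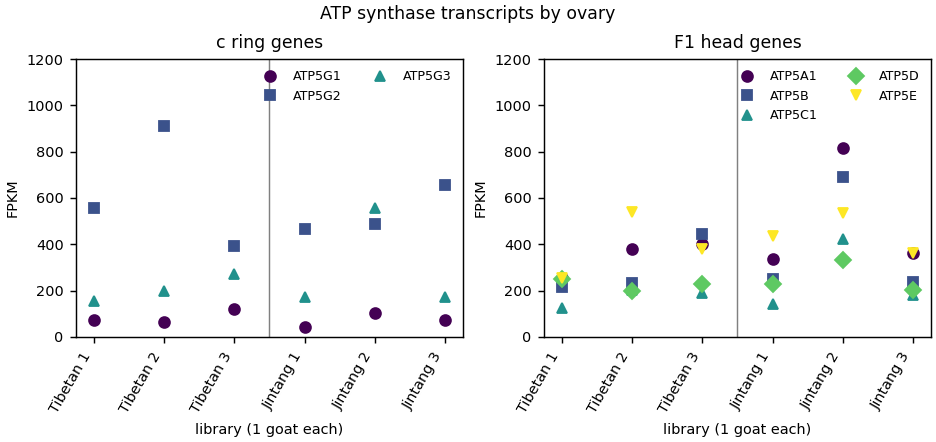
FPKM in each ovary of the 3 genes for the c ring of ATP synthase (left) and the 5 genes of its F1 head (right), 1 point per goat. ATP5G3, ATP5A1, ATP5B and ATP5C1 are highest in Jintang 2, whereas ATP5G2 is highest in Tibetan 2 (909 FPKM).

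A few members, ATP5I, NDUFS6 and NDUFA3, were listed at or near 0 although complex I and ATP synthase are built with them in mammals. ATP5I, subunit e of complex V, was listed at 0 in 4 libraries and at 1.29 and 2.37 FPKM in Tibetan 3 and Jintang 2. NDUFS6, a zinc-binding accessory subunit of complex I, was listed at 0 in 5 libraries and at 0.430 FPKM in Jintang 2. Neither was tested. NDUFA3 was tested at low values, 1.25, 3.89 and 2.75 against 8.09, 3.76 and 0 FPKM (log2 change 0.02 with an SE of 0.75), and its sign changed with the pseudocount. The other tested subunits of these complexes, leaving out ATP5S, ATP5SL and NDUFA4L2, averaged at least 13.5 FPKM, and whether these low values are estimates of true levels was not tested. ATP5S and ATP5SL, which carry the ATP5 stem but are not structural subunits, were low and even, at 7.76, 8.70 and 7.59 against 7.28, 8.43 and 9.66 FPKM and 15.1, 11.8 and 20.0 against 11.3, 14.7 and 13.3 FPKM. The 3 genes of subunit c share coding sequence, and respiratory subunit genes often have processed copies elsewhere in mammalian genomes, so how reads were shared among copies can affect their levels.

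Other mitochondrial genes came from lists of 147 genes, of which 98 matched and 96 were tested. Of these 96, 0 were called, 65 were positive and 31 negative, and 3 were higher and 4 lower without overlap between the breeds (3.2% and 6.7% of all tested genes). Their median was 0.12, and -0.16 without Jintang 2. Assembly factors, which help build the complexes without staying in them, had 30 of 60 listed genes matched and tested, with 0 called, 21 positive and 9 negative (median 0.10). Jintang 2 was highest in 20 of these 30. TTC19 alone had breeds without overlap, at 16.5, 12.95 and 13.5 against 7.54, 12.3 and 10.6 FPKM. Its log2 change was -0.47 (SE 0.28, adjusted p of 0.743 in limma). The 17 genes listed for the citric acid cycle and the pyruvate dehydrogenase complex all had their highest value in Jintang 2. Of these genes 0 were called (14 positive, 3 negative, median 0.16). SUCLG2, a subunit of succinyl-CoA synthetase, read 19.3, 41.0 and 35.3 against 43.0, 111 and 46.1 FPKM without overlap (log2 change 0.97 with an SE of 0.44 and an adjusted p of 0.743), as did IDH3B (48.7, 46.5 and 47.9 against 50.9, 90.3 and 51.9 FPKM). Import and carrier genes (16 of 20 matched, 0 called, 14 positive and 2 negative, median 0.18) were highest in Jintang 2 in 14 cases. Without Jintang 2 the medians were -0.17 for the citric acid cycle, -0.15 for import and carriers and -0.15 for assembly factors, with 4 of 17, 4 of 16 and 7 of 30 positive. LONP1, a protease of the matrix, read 51.8, 42.8 and 74.5 against 80.4, 163 and 59.5 FPKM, and TIMM44, which ties the import motor to its channel, 24.8, 18.2 and 28.9 against 29.6, 60.9 and 25.5 FPKM. Both were highest in Jintang 2, with overlapping breeds.

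Electron carriers and coenzyme Q enzymes were split, with 10 of 19 tested genes positive and 9 negative (median 0.04, -0.18 without Jintang 2, 0 called). COQ8A, a kinase-like protein of coenzyme Q synthesis, was lower in all 3 Jintang ovaries, at 30.4, 19.7 and 20.0 FPKM in the Tibetan ovaries and at 11.8, 6.22 and 16.4 FPKM in the Jintang ovaries (log2 change -1.03 with an SE of 0.37 and an adjusted p of 0.743), and was the only one of the 96 tested genes of these lists with an unadjusted p under 0.05. DHODH, which feeds electrons from pyrimidine synthesis into the coenzyme Q pool, read 21.6, 21.8 and 24.7 against 12.0, 18.1 and 17.8 FPKM, also without overlap. The regulators of mitochondrial biogenesis showed both signs (6 of 14 tested positive, 8 negative, median -0.16, 0 called), and Jintang 2 was highest in 5 of the 14. PPARA had the smallest p of this list and read 11.9, 10.5 and 12.5 against 4.09, 4.44 and 11.7 FPKM. Its log2 change was -0.84 (SE 0.39, adjusted p of 0.743 in limma), with overlapping breeds. The coactivator gene PPARGC1A stood at no more than 0.210 FPKM in any ovary. Its relative PPARGC1B read 0.690, 0.890 and 1.49 against 1.56, 4.58 and 1.43 FPKM, highest in Jintang 2, as was the nuclear receptor ESRRA (9.51, 9.77 and 18.4 against 16.6, 22.3 and 11.3 FPKM). NRF1, a transcription factor of respiratory genes, read 15.6, 13.0 and 12.3 against 8.45, 7.28 and 12.6 FPKM and was lowest in Jintang 2. TFAM, which packages mitochondrial DNA, read 12.1, 15.9 and 11.4 against 7.49, 12.8 and 10.8 FPKM, and GABPA 11.8, 12.8 and 13.8 against 13.0, 17.0 and 12.5 FPKM. ATPIF1, the inhibitor of ATP synthase running in reverse, read 21.1, 42.8 and 45.2 against 19.1, 43.9 and 31.0 FPKM and did not single out Jintang 2.

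**Figure D4:**
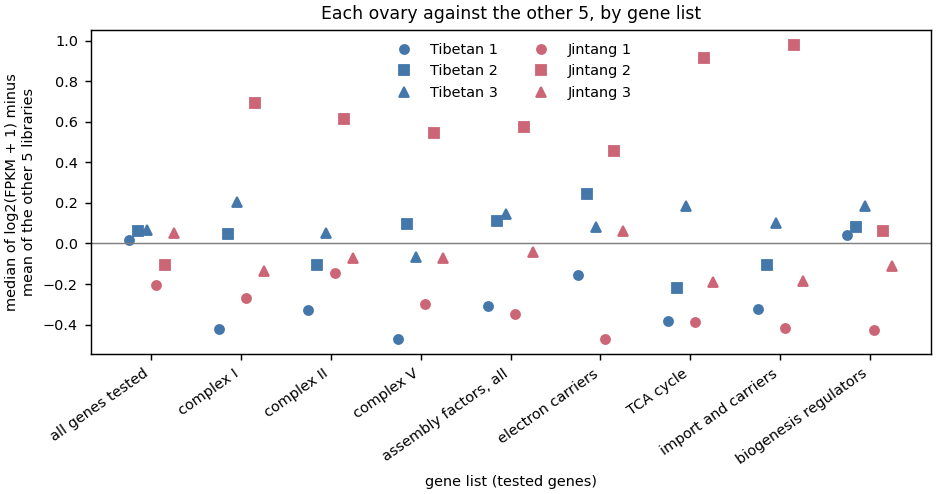
Each ovary against the mean of the other 5, as the median over the tested genes of each list on the log2(FPKM + 1) scale, with 1 point per goat. Jintang 2 lies at -0.11 for all tested genes and between 0.45 (electron carriers) and 0.98 (import and carriers) for the complexes, assembly, carrier, TCA cycle and import lists, but at 0.06 for the biogenesis regulators.

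Markers of other cell types also differed between single ovaries, with the steroidogenic sum highest in Jintang 2 and the macrophage sum in Jintang 1. The theca and steroidogenic list (8 of 10 matched, none at 0) summed to 169, 423 and 2647 FPKM in the Tibetan ovaries and 951, 15329 and 389 FPKM in the Jintang ovaries. STAR, which moves cholesterol into mitochondria, stood at 8.91, 28.6 and 139 FPKM in the Tibetan ovaries and at 139, 3130.3 and 30.8 FPKM in the Jintang ovaries. CYP11A1 (listed as LOC102173131) stood at 52.8, 77.0 and 912 FPKM in the Tibetan ovaries and at 515, 5995 and 99.5 FPKM in the Jintang ovaries. The same order did not hold for CYP17A1 (LOC102182663), the theca enzyme, which read 16.3, 152 and 719 against 1.99, 4.24 and 103 FPKM. 3BHSD read 28.1, 57.3 and 482 against 105, 4270 and 53.3 FPKM, in Jintang 2 at 8.85 times the next ovary. Luteal markers (5 of 6 matched) summed to 509 to 1520.1 FPKM in the Tibetan goats and 515 to 9956 FPKM in the Jintang goats. Jintang 2 had the highest luteal sum, and Jintang 1 and Jintang 2 were each highest in 2 of the 5 genes. Smooth muscle and pericyte markers (8 of 8) summed to 3941 to 7655 FPKM in the Tibetan goats and 2025 to 7599 FPKM in the Jintang goats, lowest in Jintang 2. Granulosa markers (9 of 9) summed to 192 to 1261 FPKM in the Tibetan goats and 181 to 315 FPKM in the Jintang goats. The highest granulosa sum was in Tibetan 3, where only 2 of the 9 genes were highest and 3 were lowest. The median difference of these genes in Tibetan 3 from their mean in the other 5 ovaries was -1.31 on the log2 scale. Macrophage markers (7 of 8) summed to 35.9 to 128 FPKM in the Tibetan goats and 79.1 to 509 FPKM in the Jintang goats, and all 7 were highest in Jintang 1. Endothelial markers (6 of 6) summed to 132 to 229 FPKM in the Tibetan goats and 149 to 347 FPKM in the Jintang goats. Their sum was highest in Jintang 1, but 3 of the 6 genes were highest in Jintang 2, 2 in Jintang 1 and 1 in Tibetan 2. Ciliated epithelium markers (5 of 6) had FOXJ1 at 0 in every ovary. They summed to 19.6 to 37.0 FPKM in the Tibetan goats and 12.4 to 30.0 FPKM in the Jintang goats. Skeletal muscle markers (5 of 8) summed to 14.5 to 373 FPKM in the Tibetan goats and 11.7 to 20.3 FPKM in the Jintang goats, with ACTA1 at 366 FPKM in Tibetan 3 and MYL1 at 0 in 4 libraries. Brown fat markers (5 of 6) summed to at most 8.98 FPKM in any ovary, with UCP1 at no more than 0.17 FPKM, and erythrocyte markers (3 of 7) to at most 0.720 FPKM. The part of these cell types in the subunit levels was not tested. Whether the markers of each ovary match the follicular phase given for it was not tested either.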

How the data were processed

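RNA from each ovary was isolated with TRIzol and libraries came from an NEBNext Ultra kit (per the labels' protocols). The authors deposited 1 FPKM value per gene and goat, per the file headers. RSEM 1.2.0, Bowtie2 2.1.0 and TopHat2 2.0.10 appear in the submitters' processing notes with no role. No genome build is named by the sources used here, and no coordinate or sequence is printed. FPKM is relative within a library, so abundant genes can lower the rest. A table of the whole series with 6 columns of per-sample values was not used.

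Symbols came from a RefSeq table of assembly ARS1.2 (16459 genes by GeneID, 9 by accession), and CYP11A1 and CYP17A1 through its synonyms, added after the values were seen. The 13067 genes that reached 1 FPKM in 3 or more libraries entered limma 3.58.1 (R 4.3.3) on log2(FPKM + 1) with an intensity trend and breed as the only term. P-values are 2-sided and adjusted by Benjamini-Hochberg over these genes with a threshold of 0.05. They set the breed difference of a gene against the spread between these goats, which limma estimates with the help of all tested genes. No batch is given. Isoform ratios carry no test, since an exact permutation test of 3 against 3 cannot go below p = 0.10. Relative depth came from low values (0.15 to 1 FPKM). The fit was tested on simulated data.

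For 1 member, counted in the totals, no values are reported here. Members and lists were chosen with earlier results of these data known. Fold changes are printed only for genes under a rule, and not for every one of them. Among members the rule takes the 3 smallest p and the highest and lowest mean of each complex, isoform pairs and complex II. It also takes core and catalytic subunits, members without overlap and the 5 widest ranges. In other lists it takes the 2 smallest p. The fold change of NDUFC2 lies outside this rule and is given as the lowest among the tested members. Alternatives were a pseudocount of 0.1, no filter or 5 FPKM, median-ratio or common-sum scaling, no trend, a replicate block and each library left out.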

Additional observations from a re-analysis of the deposited data

How the results depend on the processing

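No member passed at an adjusted p under 0.05 under any alternative run. As deposited 0 members were higher in Jintang without overlap, against 2 with median-ratio scaling (SDHB and ATP5S, with 4.58% of all tested genes) and 1 with common-sum scaling (SDHB, with 3.08%). These are no larger shares of the 57 members than of all tested genes. The log2 fold change of SDHD was 0.032 with median-ratio scaling, and that of NDUFA3 was -0.76 with a pseudocount of 0.1 and -0.054 with common-sum scaling. Leaving out 1 library at a time gave 0 to 13 genes called higher over all genes, with 13 without Jintang 3. It changed the sign of 12 of 24 named members, and 2 of 24 changed sign under the other alternatives. Over these leave-one-out fits the log2 fold changes ran from -0.094 to 0.39 for SDHC, -0.21 to 0.090 for SDHD, -0.29 to 0.29 for NDUFS3, -0.083 to 0.47 for NDUFV2, -0.17 to 0.83 for NDUFB1, -0.13 to 0.72 for NDUFA5, -0.66 to 0.93 for NDUFA3 and -0.66 to 0.50 for NDUFA4L2. In complex V they ran from -0.21 to 0.62 for ATP5B, -0.53 to 0.061 for ATP5G1, -0.43 to 0.17 for ATP5G2 and -0.22 to 0.62 for ATP5G3. The 12 that kept their sign ran from 0.28 to 0.70 for NDUFB5, 0.24 to 0.74 for NDUFA10, 0.13 to 0.84 for NDUFV1, 0.21 to 1.05 for NDUFS1, 0.12 to 0.74 for NDUFS7, 0.012 to 0.59 for NDUFS8, 0.22 to 1.01 for NDUFA4, 0.38 to 1.04 for SDHA, 0.24 to 0.52 for SDHB, 0.18 to 0.67 for ATP5J2, 0.17 to 0.60 for ATP5F1 and 0.047 to 0.69 for ATP5A1. The cause of these changes was not tested. With the replicate block 0 genes were called, 581 had an unadjusted p under 0.05 beside 806 without it, and the smallest adjusted p of a member was 0.952 (limma). Goats with the same number are different animals, and their deviations correlated at -0.02, -0.21 and -0.47 across genes, so the numbers were not taken as a pairing. With 3 goats a breed, differences of the size seen in these members could not be told from the spread between goats.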
